A study of Mus musculus with 12 samples.

Results

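The clustered protocadherin genes lie in 3 neighbouring arrays, Pcdha, Pcdhb and Pcdhg, on mouse chromosome 18. Their DNA methylation was followed here in 12 libraries of reduced representation bisulfite sequencing, a method that reads methylation at cytosines near the cut sites of the enzyme MspI. The interval was set by position, from 37080000 to 38010000 on build mm9, which is 930 kb. It held 5086 of the 8119606 cytosines listed for the series. Of these, 1485 were methylated at 20% or more in at least 1 library, against 1710224 in the genome. Such cytosines made up 29.2% of the listed cytosines in the interval and 21.1% in the genome. The limit of 20% fell inside a continuous range: 134 cytosines had their highest value at 15% to below 20% and 84 at 20% to below 25%, and the values nearest the limit were 19.9% and 20%.

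Clustered protocadherins are cell adhesion proteins of the nervous system. Each gene has a large variable first exon with its own promoter, and in Pcdha and Pcdhg this exon is spliced to constant exons shared by the whole array, whereas Pcdhb genes have no constant exons. Single neurons use a small, apparently random choice of the alternate first exons, which gives each cell a surface identity, while the C-type genes at the ends of Pcdha and Pcdhg are used in most neurons. Promoter methylation is known to accompany silent alternate exons, and the architectural protein CTCF binds active ones.

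The study asked how the genome is methylated in haploid stem cells and in mice made from parents of the same sex. Of the 6 libraries of cultured embryonic stem cells (ESCs), all labelled wild type, 2 came from androgenetic haploid cells (ahESCs, with a genome from sperm), 2 from parthenogenetic haploid cells (phESCs, with a genome from an egg) and 2 from diploid cells, each at early and late passage. The other 6 were a wild-type (WT), a bimaternal (BM) and a bipaternal (BP) whole embryo at E15.5, a BM brain at E19.5, and an adult brain each of BM and WT mice. A BM embryo arose from a phESC placed in a mature oocyte, and a BP embryo from an ahESC and a sperm placed in an oocyte without nucleus. The BM and BP libraries all carry the label of a knockout of differentially methylated regions, which does not say which regions, and the WT libraries do not. A percentage in bulk DNA averages over cells and alleles, and these cannot be told apart.

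Each group had 1 library, so no value below has a replicate error, and differences between 2 libraries were not tested. The files give percentages without coverage, so the depth behind a value is unknown. Libraries held values at 3773871 to 5903648 cytosines, of which 2417 to 3490 lay in the protocadherin interval. The libraries fell into 2 technical sets. Late ahESC, late phESC and both adult brains had values on unplaced chromosome Y sequence, and the other 8 libraries had none. CCGG sites, cut by MspI, made up 20.96% to 21.8% of the measured exonic CpGs of the clusters in the 8 libraries, 35.5% to 38.6% in late ahESCs and the adult brains, and 0.921% in late phESCs. Comparisons across these sets carry this difference, and its part in them was not tested. Such comparisons include passage in ahESCs and phESCs, late haploid with late diploid ESCs, and adult brains with earlier stages.

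First exons were located by matching their CG and GC pattern to the listed positions. Of 58 annotated genes, 48 first exons were placed, 11 of 14 in Pcdha, 16 of 22 in Pcdhb and 21 of 22 in Pcdhg. All placed exons of the clusters shared 1 shift between builds, as the placement required, and 1 exon record with another shift was not used. The arrays ran from 37089838 to 37347311 (Pcdha), 37424592 to 37684133 (Pcdhb) and 37821447 to 37984733 (Pcdhg). Of 1074 cytosines at 20% or more with a known context, 1073 lay in CpG. Exons were placed by this same match, so the count is no check on the placement. Exonic cytosines outside CpG had mean levels of 0.331% to 0.998% across libraries. A level was given for 40 first exons with at least 5 cytosines at 20% or more, 9 in Pcdha, 11 in Pcdhb and 20 in Pcdhg. The 8 placed exons without a level were Pcdha6, Pcdha11, Pcdhb7, Pcdhb12, Pcdhb13, Pcdhb19, Pcdhb21 and Pcdhgc4. The annotation gives the name Pcdha11 to 2 genes.

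For the 20% set, the clusters were methylated below the rest of the genome in every library, and their level was lower in each stem cell library than in each embryo or brain. Levels here are means over 1 kb tiles with at least 3 cytosines of the 20% set. In early ahESCs the clusters stood at 34.6% and the other tiles of the genome at 60.3%, and in early diploid ESCs at 33.8% and 62.6%. Early phESCs were lower on both measures, at 18.4% and 38.2%. The late libraries stood at 18.6% in ahESCs, 11.5% in phESCs and 10.01% in diploid cells, each below the early library of its type. In these late libraries the rest of the genome stood at 34.9%, 28.9% and 27.0%.

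In embryos the clusters reached 53.6% (WT), 54.9% (BM) and 54.1% (BP), beside 67.1%, 69.2% and 69.6% in the rest of the genome. Brain values were 59.8% for BM at E19.5, 57.1% for BM adult and 59.4% for WT adult, beside 74.4%, 63.3% and 65.3%. No tissue library overlapped a stem cell library.

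Clusters minus rest averaged -16.2 points (SD 6.62 over 12 libraries of different kinds) and was negative in 12 of 12. An exact two-sided sign-flip permutation test over libraries gave p = 0.000488, the smallest that 12 libraries allow, and 0.00244 after Benjamini-Hochberg adjustment over the 5 tests made. The cluster level was 56.5% (SD 2.69, n = 6 libraries) in embryos and brains and 21.2% (SD 10.7, n = 6) in stem cells, an exact two-sided permutation p of 0.00216 (adjusted 0.00361), the smallest possible for 6 against 6. Clusters minus rest was -11.7 points (SD 4.37, n = 6) in tissue and -20.8 points (SD 5.21, n = 6) in stem cells, a difference of 9.16 points with the same p by the exact permutation test. That last difference fell to 4.54 points (exact permutation p = 0.210) when tiles needed 10 cytosines. Within the 8 libraries of the first technical set the differences were 31.4 points in level and 8.35 points in clusters minus rest, each with an exact permutation p of 0.0286, the smallest for 4 against 4. The other set held 2 libraries of each kind, too few for a test, with 18.6% and 11.5% in late stem cells and 57.1% and 59.4% in adult brains. As a ratio to the rest of the genome, the clusters stood at 0.831 (SD 0.0584, n = 6) in tissue and 0.483 (SD 0.0820, n = 6) in stem cells (exact permutation p = 0.00216), a measure added after the data were seen. All these tests used the 20% set, which was chosen by values of the same 12 libraries. Cytosines high only in tissue could enter it, and the share that entered was 29.2% in the interval and 21.1% in the genome.

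With every listed cytosine included, the side of the genome depended on the kind of sample. The clusters then lay below the rest of the genome in all 6 stem cell libraries, by 2.14 points in late phESCs to 4.72 points in early diploid cells. They lay above it in all 6 tissue libraries, by 1.36 points in the BM adult brain to 1.67 points in the BM embryo. Over the 12 libraries this averaged -1.11 points (exact sign-flip permutation p = 0.190), so the lower level of the clusters across all samples held for the 20% set and not for all listed cytosines. The listed cytosines are not all CpGs: of 3638 with a known context, 1729 lay in CpG. Levels over all listed cytosines are thus not levels over all CpGs, and the CpG share in the genome has no value here.

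**Figure D1:**
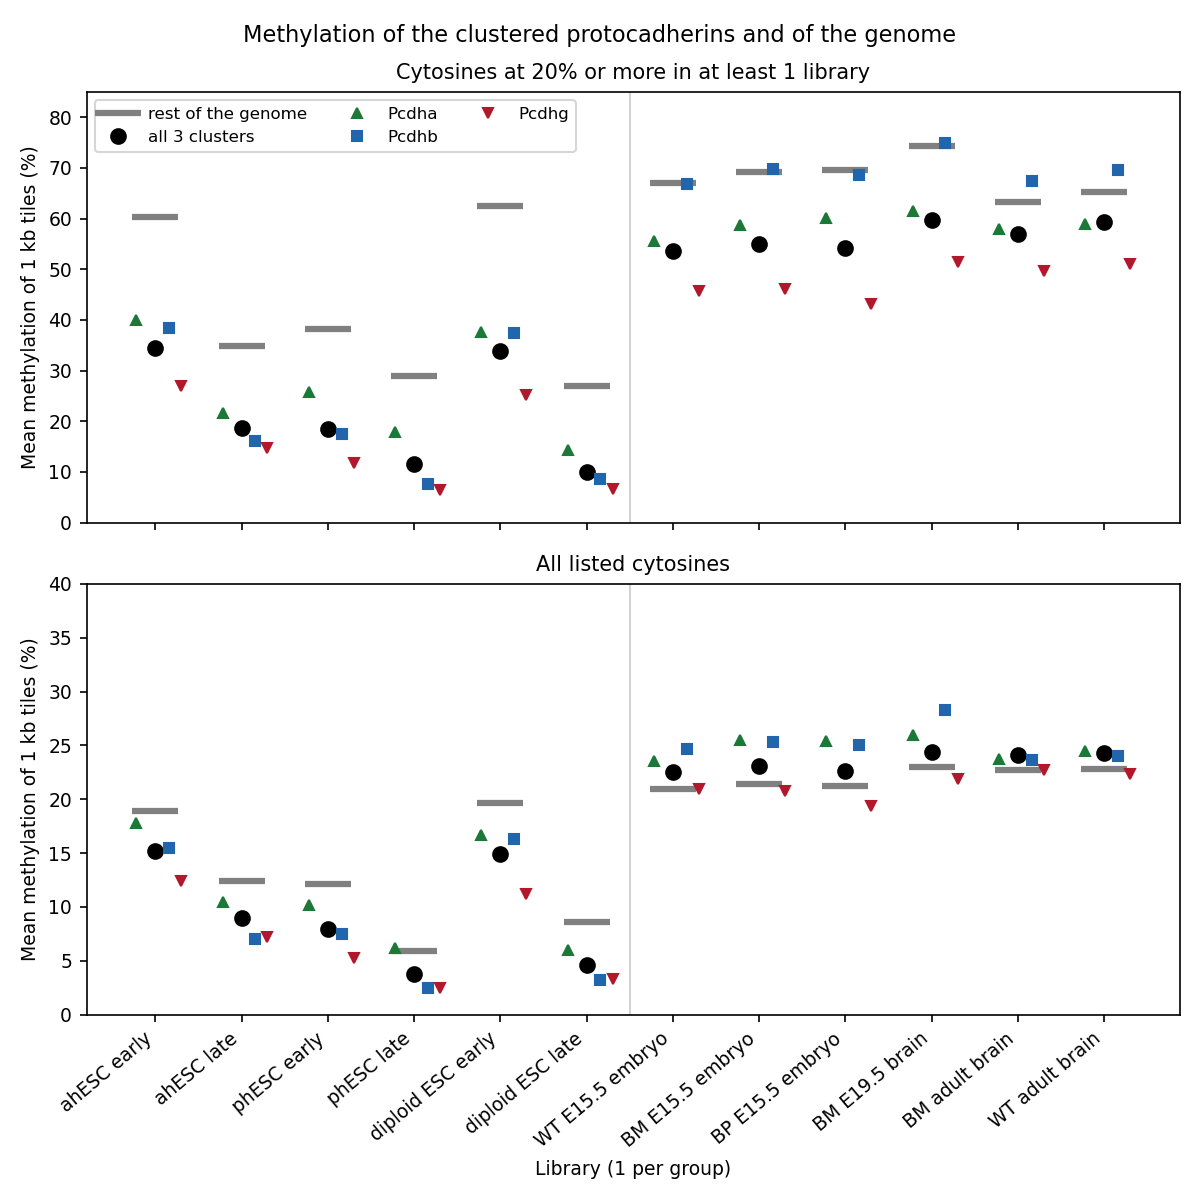
Mean methylation of 1 kb tiles (%) in each of the 12 libraries (1 per group), for cytosines at 20% or more in at least 1 library (upper panel) and for all listed cytosines (lower panel). Black points are the whole interval, coloured symbols the 3 arrays and grey bars the rest of the genome; the black points lie under the bars in 12 of 12 libraries above, and in 6 of 12 below.

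The 3 arrays differed in level. In early diploid ESCs Pcdha stood at 37.7%, Pcdhb at 37.5% and Pcdhg at 25.1%. In the WT embryo the values were 55.6%, 66.9% and 45.7%. Pcdhb was the highest array in all 6 tissue libraries, between 66.9% and 74.9%, and Pcdhg was the lowest array in all 12 libraries. In all 6 stem cell libraries Pcdha was the highest, in the late ones at 21.6% in ahESCs, 17.8% in phESCs and 14.3% in diploid cells. The distribution of tiles also differed from the genome. In early diploid ESCs 46.6% of the cluster tiles were below 20%, against 14.8% of the other tiles, and 21.6% were at 60% or more, against 66.3%. In the WT embryo only 10.8% of cluster tiles were below 20%, and 50.6% lay between 20% and 60%, where the rest of the genome had 16.4%.

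The order of first exons was compared between libraries. Across 37 exons the levels of WT and BM embryos had a Pearson r of 0.973 (Spearman rho 0.954). Over 39 exons early ahESCs and early diploid ESCs had r = 0.957 (rho 0.958), and over 37 exons the WT embryo and early diploid ESCs had r = 0.653 (rho 0.642). Between late and early passage r was 0.903 (rho 0.946) in diploid ESCs over 37 exons, 0.503 (rho 0.469) in ahESCs over 36 and 0.554 (rho 0.589) in phESCs over 28, the last 2 across the technical sets. These are descriptions over exons of the same arrays, which share sites, base composition and near-identical sequence, and are not independent.

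Among alternate Pcdha exons, which encode the ectodomains of alpha protocadherins, Pcdha2 was the highest by its mean over libraries (54.4%), then Pcdha8 (51.3%) and Pcdha4 (42.5%). Pcdha2 was at 66.1% in early ahESCs, 27.3% in early phESCs and 58.5% in early diploid ESCs, at 61.5%, 66.04% and 75.6% in WT, BM and BP embryos, and at 68.5% and 72.2% in BM and WT adult brain. Its difference between the WT embryo and early diploid ESCs, 2.93 points, was the smallest among the exons that were higher in the embryo. Pcdha8 had 63.2%, 38.1% and 57.5% in the early stem cells and 62.6%, 64.3% and 74.7% in the embryos.

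Pcdha5 was among the lowest, at 8.22%, 5.81% and 2.37% in early ahESCs, phESCs and diploid ESCs and at 37.9%, 33.9% and 31.3% in the WT, BM and BP embryos. Pcdha12 had the lowest mean, 9.94%, but values in 4 libraries only: 0.927% in early ahESCs, 4.49% and 0.588% in early and late diploid ESCs, and 33.7% in the E19.5 brain. The alpha exons were not covered alike. Every cytosine behind the Pcdha5 and Pcdha12 levels lay in the first 500 bp, where alternate exons were lowest as a group. Pcdha2 and Pcdha4 had 0 cytosines there, and Pcdha8 had 11 of its 12 in early diploid ESCs. The part of cytosine position in these ranks was not tested. The first constant exon of Pcdha (37315809 to 37315867), 59 bp long and shared by all alpha isoforms, held 6 cytosines. It stood above the median of the variable alpha exons in each of these libraries, with 65.98% in early ahESCs, 78.9% in early diploid ESCs, 82.3% in the WT embryo and 87.1% in the E19.5 brain.

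Pcdhb exons, which hold the entire beta protein, were the highest group in every embryo and brain. Their median was 66.9% in the WT embryo, 69.2% in the BM embryo, 69.5% in the BP embryo, 75.3% in the E19.5 brain and 72.4% and 65.3% in BM and WT adult brain. In early ahESCs and diploid ESCs it was 39.0% and 38.7%, and in early phESCs 17.2%. This rank did not hold from 1000 bp before to 500 bp after the start, where few beta exons had a value. There the Pcdhb median was below that of alternate Pcdha in every embryo and brain, at 29.0% (2 genes) and 51.0% (4 genes) in the WT embryo. The part of cytosine position in the rank was not tested. Pcdhb15 had the highest mean (61.7%), with 57.3% and 48.5% in early ahESCs and diploid ESCs, 84.7% to 88.1% in the embryos and 90.5% in the E19.5 brain. Pcdhb3 (57.3% over 9 libraries, none of them late stem cells) and Pcdhb17 (51.3% over 12) had the next means. Over the 9 libraries that have all 3, Pcdhb17 was at 64.7%, above Pcdhb3.

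Pcdhb18 had the lowest mean of the beta genes, 33.1%, and Pcdhb1, the first beta gene, had 40.1%, both over 12 libraries. Pcdhb10 was measured in early diploid ESCs alone, at 39.6%, above the beta median of 38.7% in that library. Pcdhb1 stood at 37.9%, 16.4% and 33.6% in early ahESCs, phESCs and diploid ESCs, at 60.4%, 65.1% and 61.2% in the WT, BM and BP embryos and at 56.2% and 58.4% in BM and WT adult brain. Every tissue value of Pcdhb1 lay above every stem cell value.

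Gamma exons of the A and B subfamilies had lower medians, 41.2% and 43.2% in the WT embryo and 12.3% and 17.5% in early diploid ESCs. Pcdhga7 was the exception. Its first exon (37874418 to 37877028, 2611 bp) was at 71.0%, 37.04% and 78.0% in early ahESCs, phESCs and diploid ESCs, at 93.5%, 94.4% and 88.6% in the WT, BM and BP embryos and at 96.6% in the E19.5 brain. It was the highest exon in these libraries, on 5 to 10 cytosines each, except in early phESCs, where Pcdha8 (38.1%) was. In the adult brains Pcdhb15 was the highest exon, at 84.3% (BM) and 86.6% (WT). Among exons with a value outside CCGG Pcdhga7 was the highest, at 96.5% and 93.9%, and Pcdhb15, with 4 cytosines there, had none. Pcdhgb2 (43.6%) and Pcdhga3 (37.4%) had the next means, and Pcdhgb4 (21.03%) and Pcdhga8 (21.1%) were among the lowest. Pcdhga8 was at 4.68%, 3.13% and 6.11% in the early stem cells and at 36.2%, 36.98% and 28.2% in the WT, BM and BP embryos.

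**Figure D2:**
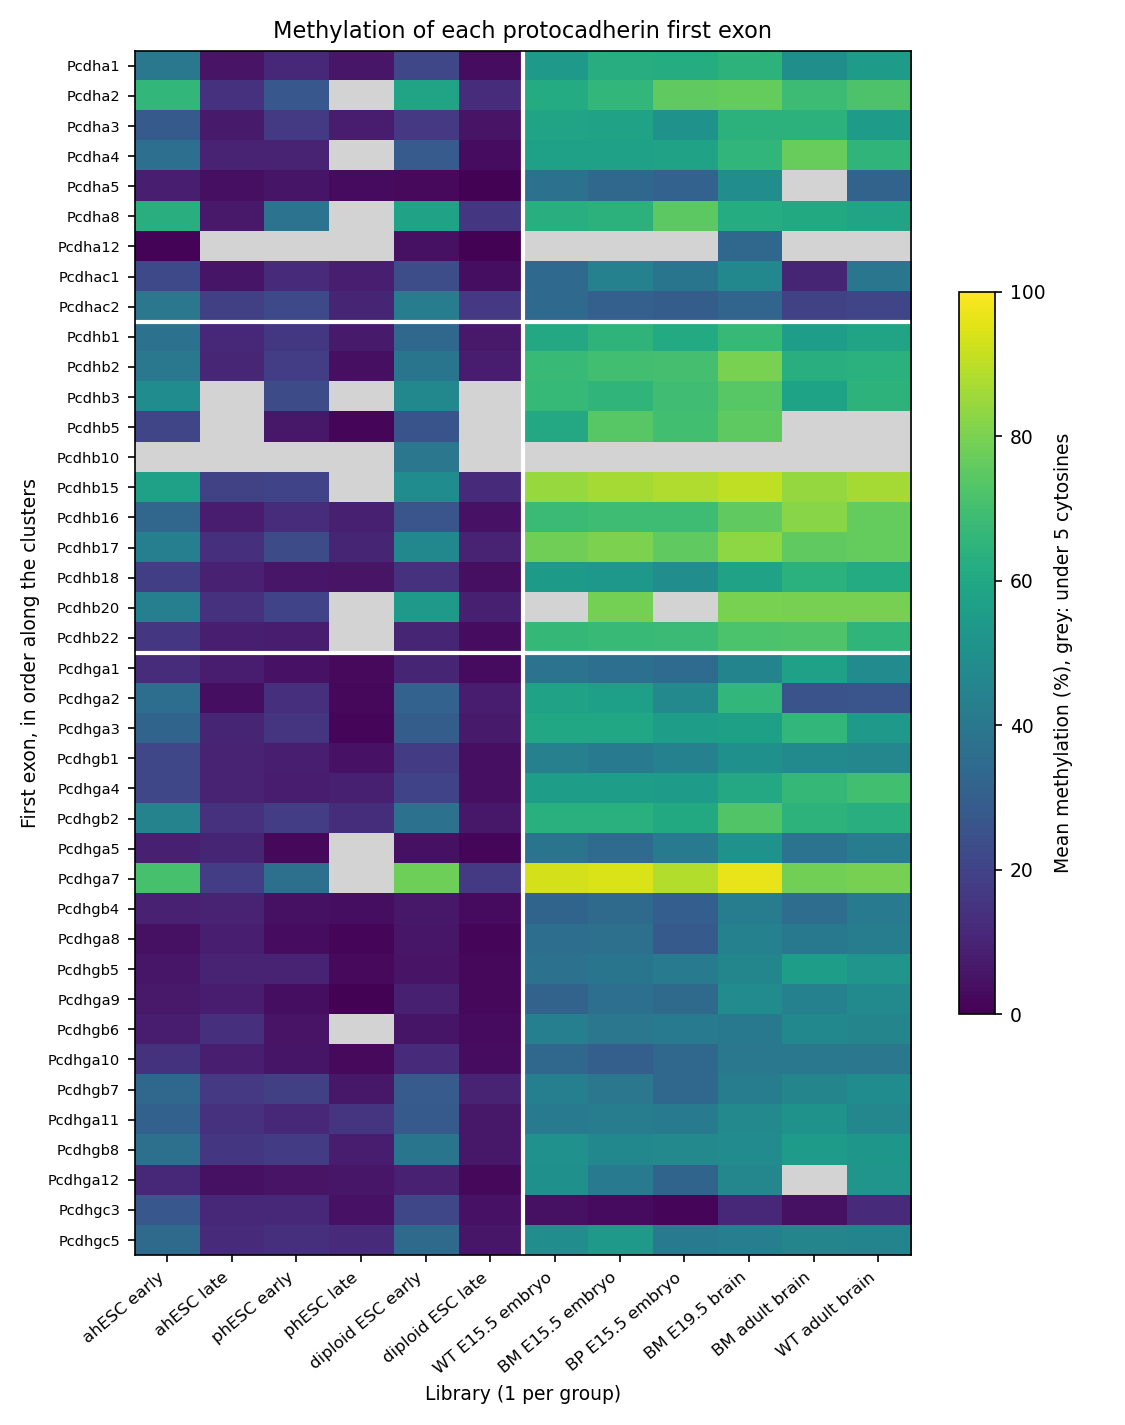
Mean methylation (%) of 40 protocadherin first exons (rows, in order along Pcdha, Pcdhb and Pcdhg) in the 12 libraries (columns, 1 per group), over cytosines at 20% or more in at least 1 library; grey marks fewer than 5 cytosines. Exons are dark in the late stem cells and brighter in embryos and brains, except Pcdhgc3, which is at 1.44% to 11.9% in tissue.

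The C-type exons, whose genes are used broadly in neurons, did not share 1 pattern. Pcdhgc3 (37966018 to 37969397) was at 27.0%, 11.7% and 21.2% in early ahESCs, phESCs and diploid ESCs, and at 4.34%, 2.78% and 1.44% in the WT, BM and BP embryos. In brain it was at 10.99% (BM E19.5), 4.61% (BM adult) and 11.9% (WT adult). These values cover the 16 CpG cytosines, of 111 listed, that reached 20%. Over all its CpGs Pcdhgc3 had 9.43% and 7.65% in early ahESCs and diploid ESCs and 2.12%, 1.36% and 0.739% in the WT, BM and BP embryos.

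Pcdhgc4 had 3 of 47 CpG cytosines at 20% or more, and over all its CpGs it stayed between 1.14% and 4.13% in the 12 libraries. Pcdhac2 was higher in early diploid ESCs (42.3%) and early ahESCs (39.5%) than in the WT (34.2%), BM (30.7%) and BP (29.3%) embryos. Pcdhac1 and Pcdhgc5 were higher in the WT embryo than in early diploid ESCs, as most alternate exons were. Pcdhac1 went from 23.8% in early diploid ESCs to 34.2% in the WT embryo, and was at 46.6% in the E19.5 brain, 10.5% in the BM adult brain and 39.3% in the WT adult brain. On the 12 cytosines with a value in both adult brains Pcdhac1 was at 10.5% and 19.9%. Pcdhgc5 was at 34.5% in early diploid ESCs, 48.9% in the WT embryo and 45.0% in the WT adult brain. The C-type exons also differed in CpG density: Pcdhgc3 and Pcdhac2 had 4.62 and 4.56 CpGs per 100 bp, and Pcdhac1 and Pcdhgc5 had 2.89 and 2.59.

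Within the alternate exons methylation was lowest at the start. Over the first 500 bp the mean of the 20% set was 8.06% in early ahESCs, 5.96% in early diploid ESCs and 5.22% in early phESCs. From 1000 to 1500 bp it was 47.6%, 43.9% and 20.6%. In the WT embryo the same steps had 33.1% and 70.7%, and in the WT adult brain 38.8% and 66.8%. The dip at the start was present in all 12 libraries, and the start itself stood at 32.4% to 41.8% in tissue and at 2.21% to 8.06% in stem cells.

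**Figure D3:**
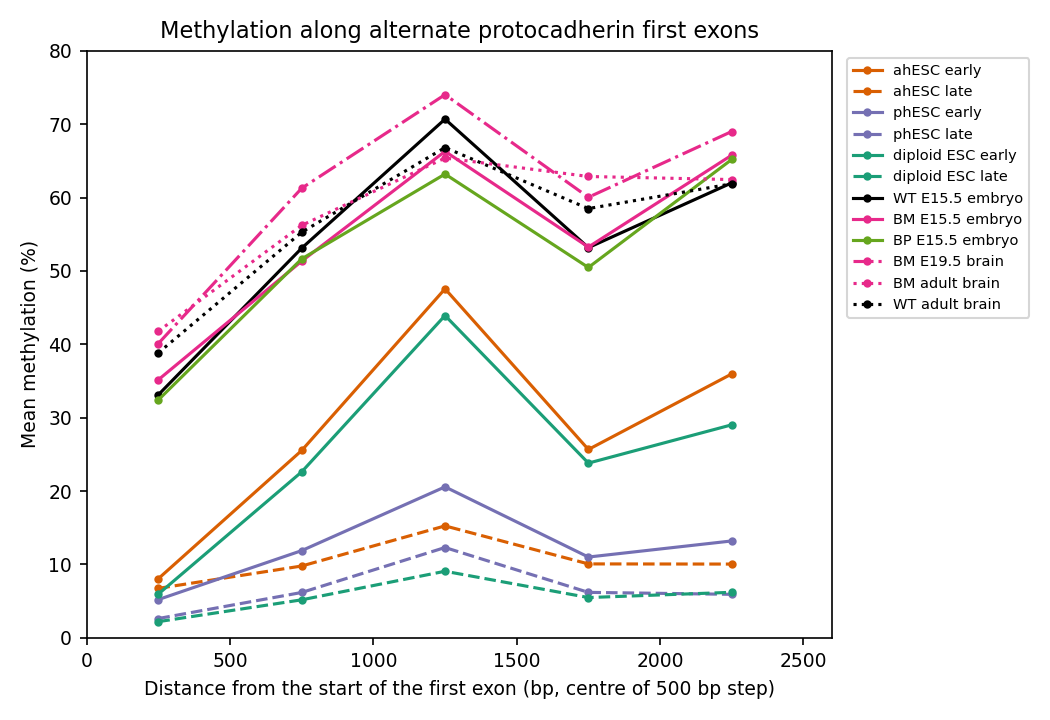
Mean methylation (%) in steps of 500 bp from the start of the alternate protocadherin first exons, 1 line per library. Embryos and brains start at 32.4% to 41.8% and the stem cells at 2.21% to 8.06%, and every line is highest at 1000 to 1500 bp or, for the BP embryo, at 2000 to 2500 bp.

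Beta exons are poorer in CpG than the others, with a median of 2.16 CpGs per 100 bp against 4.64 in alternate Pcdha, 3.18 in gamma A and 4.60 in gamma B exons. Over 37 exons in the WT embryo, density and level had r = -0.43 (rho -0.44), and over 40 exons in early diploid ESCs r = -0.29 (rho -0.34). Over the 12 libraries r ran from -0.52 in the E19.5 brain to 0.03 in late phESCs, and it was -0.05 in early phESCs and late ahESCs. These are descriptions over exons that share libraries and subfamily sequence.

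The difference between early stem cells and E15.5 embryos was next set out by pair, each embryo beside the stem cell type of the same parental origin. The 3 pairs share no library. The stem cells were labelled wild type and the BM and BP embryos knockout, and no label says that the embryos came from these cultures. From early diploid ESCs to the WT embryo 37 of 82 cluster tiles (45.1%) were higher by 25 points or more and 0 lower, against 12.1% and 5.25% of all tiles of the genome. The median difference was 22.03 points in the clusters and 3.09 points in the genome. Over all listed cytosines, which include many outside CpG, 1 of 106 cluster tiles (0.943%) was higher. In the genome 1.72% of all tiles were higher and 0.205% lower, so the count of calls held only for the 20% set. From early ahESCs to the BP embryo 28 of 77 cluster tiles (36.4%) were higher and 1 lower, against 14.2% and 2.85%, with medians of 18.9 and 5.87 points. From early phESCs to the BM embryo 66 of 81 cluster tiles (81.5%) were higher and 0 lower, against 62.6% and 0.268%, with medians of 35.5 and 31.2 points. For the 20% set the clusters thus differed more than the genome did in the diploid and androgenetic pairs, and by a smaller margin in the parthenogenetic pair, whose early cells were low across the genome. That set was itself chosen by values that include these libraries, so cytosines high only in embryos could enter it.

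Exon differences used only cytosines measured in both libraries. The windows of the genome set beside them averaged the cytosines that each library had, so the measures are not the same. Of 37 exons, 24 were higher by 25 points or more in the WT embryo than in early diploid ESCs and 0 lower, where 13.3% of all 2.5 kb windows of the genome were higher. Beta exons led: 8 of 9 passed, and the 9 differences ran from 20.4 to 54.4 points. The largest difference was at Pcdhb22, the last beta gene, from 10.5% to 64.9%. Pcdhgb6 followed with 43.8 points and Pcdhb16 with 42.1 points. Of the alternate exons 4 of 6 in Pcdha, 8 of 11 in gamma A and 4 of 7 in gamma B passed. None of 4 C-type exons did.

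In the BM embryo 32 of 37 exons were higher than in early phESCs by that margin and 0 lower, beside 64.7% of the windows of the genome. The largest were Pcdhb5 (6.43% to 74.1%), Pcdhb15 (20.04% to 86.6%) and Pcdhb20 (19.98% to 79.0%), and 10 of 10 beta exons passed. In the BP embryo 14 of 37 exons were higher than in early ahESCs and 0 lower, beside 15.48% of windows. They were led by Pcdhb22 (15.99% to 68.0%), Pcdhb5 (20.8% to 69.9%) and Pcdhb16 (32.8% to 68.9%). Pcdhgc3 was lower in the embryo in all 3 pairs, by 17.1, 8.90 and 24.1 points in the WT, BM and BP pairs. Pcdhac2 differed by -10.1, 9.11 and -8.41 points.

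**Figure D4:**
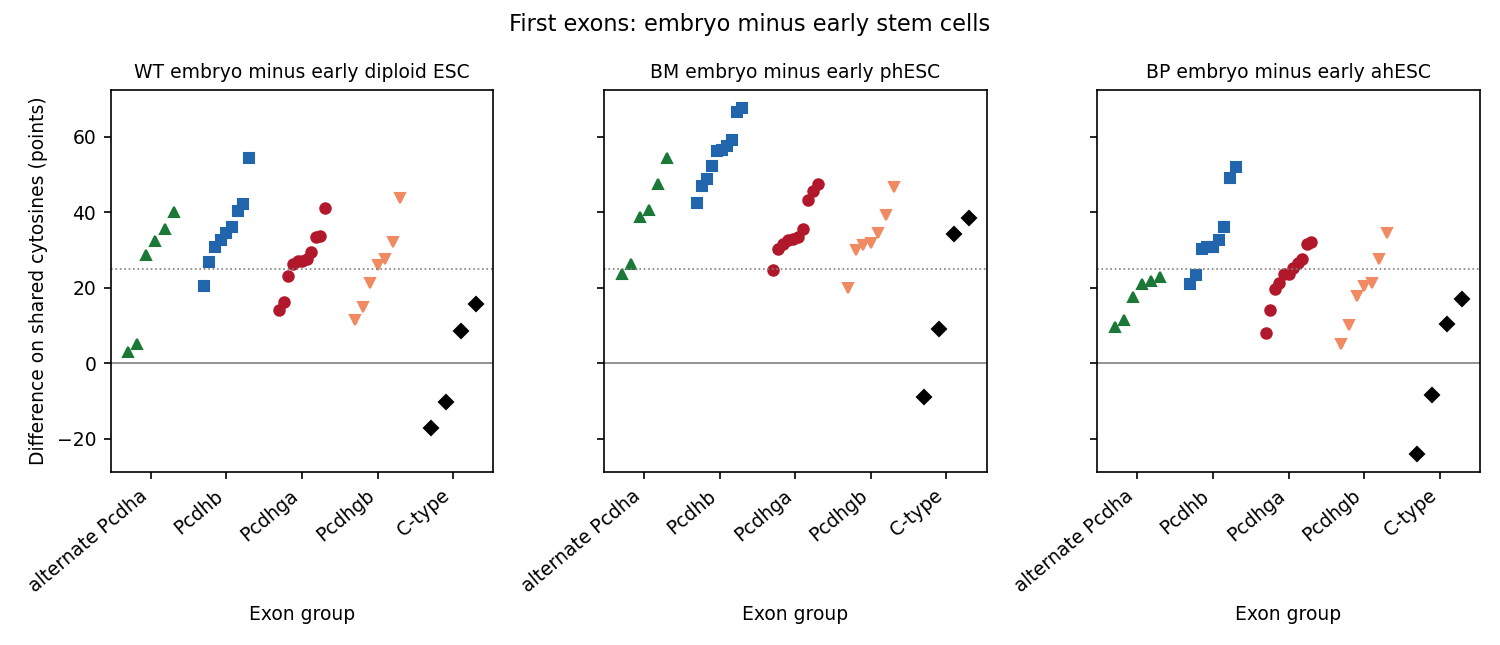
Difference in methylation (points, embryo minus early stem cells) of protocadherin first exons on shared cytosines, by exon group; 1 panel per pair of libraries and 1 point per exon, with a dotted line at 25 points. Beta exons reach 54.4, 67.6 and 52.0 points in the WT, BM and BP pairs, and Pcdhgc3, the lowest C-type point, lies below 0 in each.

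Late passage had lower protocadherin methylation than early passage in each stem cell type, except in phESCs when tiles needed 10 cytosines. There phESCs went from 14.5% to 16.3%, each library over its own tiles, of which 9 were measured in both. The change in cluster level averaged -15.5 points (SD 8.46, n = 3 cell types; lower in 3 of 3; exact sign-flip permutation p = 0.25, the smallest that 3 pairs allow). It averaged -23.4 points (SD 13.3, n = 3) in the rest of the genome. In diploid ESCs 37 of 83 cluster tiles (44.6%) were lower by 25 points or more and 0 higher, against 72.8% and 0.0351% of the genome. Over all listed cytosines 11 of 106 cluster tiles (10.4%) were lower, against 5.93% of all tiles lower and 0.0019% higher. In ahESCs 33 of 76 were lower and 0 higher, against 60.4% and 0.177%. In phESCs 0 of 53 passed either way, against 7.63% lower and 0.266% higher.

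For the 20% set the clusters lost fewer points than the genome. As a share of the early level on the same tiles, the clusters kept 29.6% in diploid ESCs, 44.5% in ahESCs and 59.6% in phESCs, where the genome kept 43.5%, 56.1% and 75.6%. The share kept was lower in the clusters than in the genome in 3 of 3 cell types, a comparison with no test beyond that count. On exonic CpGs outside CCGG, for which the genome has no value here, the clusters kept 18.9%, 21.4% and 65.0%. These last shares use each library's own cytosines and not the same ones. In the interval phESCs had values at 953 cytosines of the 20% set early and 464 late.

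Of 37 exons, 13 were lower at late passage in diploid ESCs by 25 points or more, beside 73.5% of windows, and 12 of 36 in ahESCs, beside 61.4%. Pcdhga7 and Pcdha2 were among the 3 largest changes in both cell types. In diploid ESCs Pcdhga7 went from 78.0% to 15.8%, Pcdha2 from 58.5% to 12.5% and Pcdhb20 from 53.7% to 8.71%. In ahESCs Pcdha8 went from 63.2% to 6.77%, Pcdhga7 from 71.0% to 15.7% and Pcdha2 from 66.1% to 14.1%. In phESCs the 28 exons changed by -11.0 to 2.52 points. Exons spanned 2.37% to 78.0% in early diploid ESCs and 0.588% to 16.9% in late ones.

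**Figure D5:**
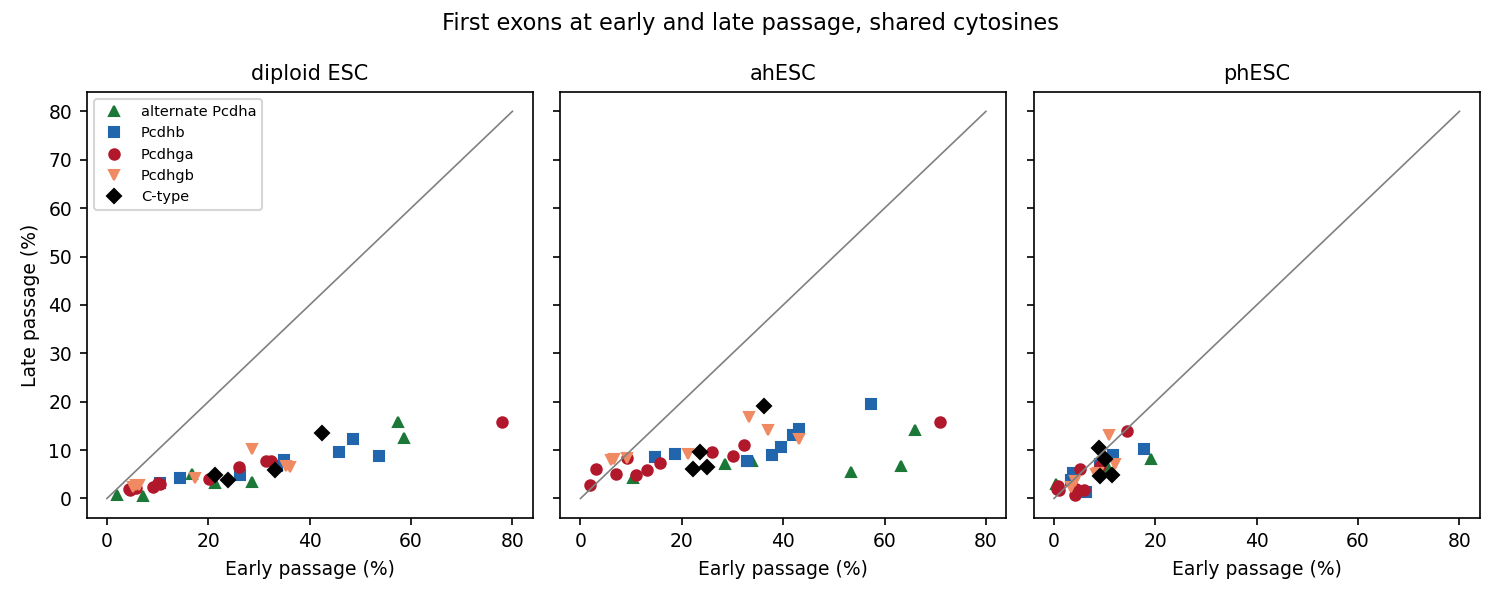
Methylation (%) of protocadherin first exons on shared cytosines at early (horizontal) and late (vertical) passage in diploid ESCs, ahESCs and phESCs, 1 point per exon, with the line of equal values. Pcdhga7 is the rightmost point in diploid cells, at 78.0% early and 15.8% late, and late values stay under 20% in all 3 panels.

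Early phESCs were below the other early stem cells in the clusters. Compared with early diploid ESCs 26 of 81 tiles (32.1%) were lower by 25 points or more and 0 higher, against 52.1% and 0.105% of the genome, with medians of -11.4 and -25.7 points. Compared with early ahESCs 29 of 81 (35.8%) were lower and 0 higher, against 44.8% and 0.0761%. These comparisons share the early phESC library. Of 38 exons 4 were lower than in diploid ESCs (52.1% of windows), led by Pcdhga7 (78.0% and 37.04%), Pcdhb20 (53.7% and 19.98%) and Pcdha2 (58.5% and 27.3%). Against ahESCs 8 of 38 were lower (44.9% of windows), led by Pcdha2 (66.1% and 27.3%), Pcdhb15 (57.3% and 20.04%) and Pcdhga7 (71.0% and 37.04%).

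Early ahESCs and early diploid ESCs differed by 25 points in 0 of 85 cluster tiles, against 0.268% higher and 0.409% lower in the genome, and the median difference was 1.16 points. That count of 0 is near the genome shares. Exons differed by -10.6 points (Pcdhb20) to 18.7 points (Pcdha1). Among late libraries the medians of the cluster tiles were 4.84 points for ahESCs minus diploid ESCs, 0.785 points for phESCs minus diploid ESCs and -3.26 points for phESCs minus ahESCs. For that last pair, the median over 27 exons on shared cytosines was 1.26 points, of the other sign. The pairs with late diploid ESCs cross the technical sets, and late ahESCs and late phESCs differ in CCGG share (35.7% and 0.921%). Outside CCGG the exon medians were 0.965 points for ahESCs minus diploid ESCs and 2.20 points for phESCs minus diploid ESCs. For phESCs minus ahESCs the median there was 1.29 points.

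No tile of the clusters separated the BM and BP embryos from the WT embryo or from each other by 25 points. Between BM and WT embryos 0 of 82 cluster tiles differed by 25 points, against 1.47% higher and 0.123% lower in the genome, with a median of 0.273 points. Between BP and WT embryos 0 of 77 differed, against 1.63% and 0.296%, with a median of 0.431 points. Between BM and BP embryos 0 of 77 differed, against 0.781% and 0.367%, with a median of 1.36 points. Counts of 0 in 77 to 82 tiles are near those shares of the genome, so they do not set the clusters apart from it. These 3 comparisons share libraries, and with 1 embryo of each kind a spread between embryos was not measured.

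At single exons BP minus WT ran from -17.9 points at Pcdhga12 (32.3% and 50.2%) to 14.1 points at Pcdha2 (75.6% and 61.5%). BM minus WT ran from -9.46 points at Pcdhga12 to 13.8 points at Pcdhb5 (74.1% and 60.3%).

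BM and WT adult brains differed by 25 points in 0 of 97 cluster tiles, against 0.0569% higher and 0.259% lower in the genome, with a median of -1.35 points. That count of 0 is near the genome shares. Exon differences ran from -9.42 points (Pcdhac1) to 9.02 points (Pcdhga1) on shared cytosines. Over exons the median was 0.178 points, and 2.93 points outside CCGG, against the tile median below 0. The E19.5 brain was higher than the BM embryo in 37 of 38 exons, with a median of 6.34 points. In the genome 77.0% of tiles were higher, with a median of 3.80 points, and in the clusters 67 of 82 tiles were, with a median of 4.50 points. The largest differences were 20.7 points at Pcdha5 (24.8% and 45.5%) and 16.7 points at Pcdhga5 (34.8% and 51.5%), and the only lower exon was Pcdhgc5, by 10.8 points. No exon passed 25 points. In that comparison 0 of 82 tiles were higher and 2 lower, against 3.95% and 0.613% of the genome, and a whole embryo holds many tissues besides brain.

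Across library sets, the BM adult brain had 1 of 70 tiles higher and 2 lower than the E19.5 brain, against 0.26% and 13.7% of the genome, with medians of -5.08 points in the clusters and -11.0 points in the genome. The WT adult brain had 1 of 76 tiles higher and 0 lower than the WT embryo, against 2.99% and 4.93%, with a median of 0.131 points. Among 32 exons 1 was lower in the BM adult than the E19.5 brain, beside 10.4% of windows. It was Pcdhga11, at 58.9% in the E19.5 and 29.2% in the adult brain on 9 shared cytosines, and on the 5 outside CCGG the difference was -0.107 points. Outside CCGG the direction turned: 19 of 25 exons were higher in the BM adult than in the E19.5 brain, with a median of 5.28 points, where all 32 exons had a median of -3.56 points with CCGG included. The median of the WT adult brain minus the WT embryo went from 1.89 points (35 exons) to 7.95 points (31 exons) outside CCGG.

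Promoters of other genes were read from 1000 bp before to 500 bp after the start, over all listed cytosines, in CpG or not. Of 12 non-clustered protocadherins, which have single promoters outside the arrays, 11 were measured. None passed 25 points between the WT embryo and early diploid ESCs (median -0.44 points), and 1 was lower at late passage in diploid ESCs (median -2.12 points). That gene was the X-linked Pcdh11x, at 36.9% early, 3.25% late and 51.0% in the WT embryo. Of 18 factors that act at the clusters or on DNA methylation, among them Ctcf, Rad21, Dnmt3b and Smchd1, 13 were measured and 0 passed in either of these comparisons, with medians of 0.249 and 0.107 points. Over all listed cytosines 1.72% of the 1 kb tiles of the genome were higher in the WT embryo and 5.93% lower at late passage, and counts of 0 or 1 in lists of this size are near those shares. Of 6 genes inside or beside the interval (Zmat2, Slc25a2, Taf7, Diaph1, Hdac3 and Rell2) 4 were measured and 0 passed, with medians of 0.206 and 0.163 points. Taf7, between the Pcdhb and Pcdhg arrays, was at 0.883% in early diploid ESCs and 1.05% in the WT embryo.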

How the data were processed

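The deposited table gives, for 12 mouse libraries, the methylation of each listed cytosine as a percent from 0 to 100, with N for no value. Per the submitters' processing notes the authors used Trim Galore and Bismark 0.13.1 with build mm9, and per the labels' protocols DNA was cut with MspI. Coverage, its filter and any pooling are not given in the sources used here, so no interval could be computed.

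Cytosines were taken from the interval by position, and averaged per 1 kb tile (at least 3 values) or per first exon (at least 5). The 20% set holds cytosines at 20% or more in any library. The table carries no sequence context. First exons of GENCODE M21 transcripts were placed by matching their CG and GC pattern to the listed positions, with at least 8 listed positions inside. In a second pass, which used the shift of the nearest placed exon, 142 exon records of cluster and list genes were also tried at 6 false offsets. None were accepted there. Exons placed before that pass were not tried at false offsets. No coordinate was converted. Placing exons by pattern departs from the plan, which preferred an mm9 annotation. Promoter windows assume that sequence beside the exon is in the same order. Genome windows of 2.5 kb serve as background for exons. The windows average the cytosines each library measured, and the exon differences only shared ones.

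With 1 library per group, differences of 25 points are counted and not tested, and exact permutation tests compare libraries of different kinds. Named are the C-type genes, Pcdhb1, the 3 highest and 3 lowest exons per array and the 3 largest differences of at least 25 points per comparison. Other exons and list genes named (the ends of ranges below 25 points, Pcdha5, Pcdhga5, Pcdhga8 and the promoters) were picked after their values were seen. The members and gene lists were chosen with earlier results of these data known. Python 3.11.15, NumPy 2.4.6, pandas 2.3.3 and Matplotlib 3.10.9 were used, and tile calls were tested on simulated data.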

Additional observations from a re-analysis of the deposited data

Results flagged for a closer look

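The gap between the protocadherin clusters and the rest of the genome was smaller in embryos and brains than in stem cells, by 9.16 points. An exact permutation of the library kinds gave p = 0.00216, or 0.00361 after adjustment over 5 tests. The libraries differ in kind, genotype and technical set, and the parts of these were not tested beyond the values given above for 8 libraries. With at least 10 cytosines per tile the gap differed by 4.54 points (exact permutation p = 0.210).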

How the results depend on the processing

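Levels depended on the cytosines used, and all listed cytosines include many outside CpG. Over all listed cytosines the clusters stood at 15.2%, 7.95% and 14.9% in early ahESCs, phESCs and diploid ESCs and at 8.94%, 3.78% and 4.56% in late ones. The WT, BM and BP embryos stood at 22.6%, 23.1% and 22.7%, and the E19.5, BM adult and WT adult brains at 24.4%, 24.1% and 24.3%. Over exonic CpGs outside CCGG, chosen after seeing the data, early cells had 23.9%, 9.86% and 21.3% and late ones 5.10%, 6.42% and 4.03%. Embryos then had 46.9%, 47.4% and 45.3%, the E19.5 brain 53.0% and the BM and WT adult brains 58.7% and 54.3%, so the BM adult brain stood above the E19.5 brain, in the opposite order to the tile levels. With 10 cytosines per tile late ahESCs had 12.8% and early diploid ESCs 28.5%, and on tiles measured in all libraries late ahESCs had 13.6%.

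Clusters minus rest over 12 libraries was -1.11 points (exact permutation p = 0.190) for all listed cytosines, and the gap between tissue and stem cells was 4.54 points (exact permutation p = 0.210) with 10 cytosines per tile. The other settings tried kept the direction and the side of 0.05 for these 2 results and for the difference in level, including early stem cells only (27.6 points, exact permutation p = 0.0119), a setting chosen after seeing the data. Leaving out 1 library at a time gave -17.2 to -15.1 points for clusters minus rest, 33.1 to 38.0 points for the difference in level and 7.57 to 10.1 points for the gap. Leaving out 1 cell type gave -19.9 to -11.4 points for passage, where 2 pairs allow no p below 0.5. With 10 cytosines per tile the passage change was -12.9 points (exact permutation p = 0.5), and the phESC levels turned direction, with 14.5% early and 16.3% late. These levels are over each library's own tiles, and 9 tiles were measured in both phESC libraries.

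Median tile differences over all listed cytosines were -6.96 (diploid passage), -5.00 (ahESC passage), -4.16 (early phESC minus diploid), -5.67 (early phESC minus ahESC), 7.64 (WT embryo minus diploid), 14.9997 (BM embryo minus phESC) and 6.78 points (BP embryo minus ahESC). Tiles past 25 points in these comparisons then numbered 11, 7, 1, 2, 1, 12 and 1, in place of 37, 33, 26, 29, 37, 66 and 28. With 10 cytosines per tile, which leaves 34 to 39 tiles, they numbered 15, 15, 9, 11, 23, 33 and 16, and the median for the WT embryo minus diploid ESCs was 28.2 points. At 15 points phESC passage had 9 lower tiles in place of 0, ahESC passage 4 higher in place of 0, BP embryo minus ahESC 47 higher in place of 28, and BM adult minus E19.5 brain 18 lower in place of 2. The WT adult brain had 5 tiles higher and 4 lower than the WT embryo, and the E19.5 brain 4 higher than the BM embryo. Other counts of 0 stayed 0 or became 1 to 3, and counts of 1 or 2 became 0 under some settings.

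In the window from 1000 bp before to 500 bp after the start, the median gene had 3.63%, 3.86% and 2.61% in early ahESCs, phESCs and diploid ESCs, 29.3%, 33.6% and 29.0% in WT, BM and BP embryos and 36.7%, 34.2% and 36.2% in E19.5, BM adult and WT adult brain. Under settings chosen after seeing the data, it had, outside CCGG, 3.91% in late ahESCs, 44.4% in the BM and 41.6% in the BP embryo and 47.2% in the E19.5 brain, and over all CpGs 49.1% and 46.8% in BM and WT adult brain. The causes of these shifts were not tested beyond the change in the cytosines used. No paired analysis was possible because replicate numbers pair nothing with 1 library per group, beyond the differences taken within cell type and within library. Depth limits every value by an unknown amount, since coverage is not in the table.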

Other observations

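The promoter of the X-linked Pcdh19, a non-clustered protocadherin, was at 1.44% in the WT and 1.41% in the BP embryo and at 19.8% in the BM embryo, and at 18.7%, 21.6% and 16.8% in the E19.5, BM adult and WT adult brains. In the stem cells it was at 0.845% to 2.73%. The promoter of Pcdh11x, also X-linked, was at 47.3% to 52.0% in all 6 embryo and brain libraries. The sex of the samples is not in the labels used here. These genes were picked after their values were seen.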
